A study of Mus musculus with 6 samples.

Results

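The enzymes and chaperones that fold, modify and cross-link collagen were followed in cultured mouse epidermal keratinocytes, the cells that build the epidermis. The list holds 10 genes: the lysyl oxidases Lox, Loxl1, Loxl2, Loxl3 and Loxl4, the prolyl 4-hydroxylase subunits P4ha1 and P4ha2, the lysyl hydroxylase Plod2, and the chaperones Fkbp10 and Serpinh1. A member was read from a probe set annotated to its symbol alone, taking the probe set with the highest mean over the arrays where there were several. Members were chosen by name with earlier results of these data known, and probe sets were selected on the mean level over the arrays of all 3 groups. This gave 8 members among 19938 named genes. Loxl2 shares its probe set's annotation with another gene, and no probe set carried the symbol Fkbp10 in the annotation used, so neither is analysed here. Loxl4 was the member with 2 probe sets, so the mean decided a choice for that gene alone. Lox and P4ha1 were known from earlier results of these data to differ between the groups, so their p-values are not independent evidence for picking them.

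RNA came from 6 one-colour arrays in 3 groups of 2. The Ovol1/2 DKO arrays held keratinocytes of genotype Ovol2flox/-;K14-Cre; Ovol1-/-, in which the keratin 14 promoter drives Cre, so that Ovol2 is to be lost in basal keratinocytes and their descendants, with both Ovol1 alleles null in the whole animal. Ovol1 and Ovol2 encode zinc finger transcription repressors of epithelia. The arrays labelled Ovol1 KO held Ovol1-/- cells. The Control arrays held cells from mice that were Ovol2flox/+; Ovol1+/- or Ovol2flox/+;K14-Cre, so they too carried a floxed Ovol2 allele and either one null copy of Ovol1 or the Cre transgene. All samples are labelled C57BL/6, female and E18.5 (late embryos), with 2 mice pooled on each array and 2 to 5 days of culture without added calcium. The titles number the 2 arrays of each group as biological replicates.

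Collagen chains are modified and folded in the endoplasmic reticulum before they are secreted. Prolyl 4-hydroxylases add the hydroxyl groups that stabilise the triple helix, lysyl hydroxylases modify the lysines used for cross-links, and Serpinh1 (HSP47) holds the folded helix on its way to the Golgi. Outside the cell, lysyl oxidases, which are copper enzymes, convert lysines of collagen and elastin to aldehydes that then join chains together. In skin most of this machinery is known from dermal fibroblasts, while keratinocytes make basement membrane collagens.

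Some arrays went against their labels. Ovol1 had log2 levels of 5.96 and 6.22 in Ovol1/2 DKO, 10.75 and 9.80 in labelled Ovol1 KO, and 9.64 and 9.95 in Control. The label Ovol1 KO was thus not borne out by the Ovol1 signal, and every direction drawn from those arrays carries that doubt. Ovol2 had overlapping levels (7.63 and 7.50 in Ovol1/2 DKO, 7.88 and 8.38 in labelled Ovol1 KO, 8.37 and 6.97 in Control). The same Ovol1 probe set read low in Ovol1/2 DKO, whose cells are also Ovol1-/-, so it can register the loss of Ovol1. Whether the Ovol2 probe set falls inside the deleted exons was not tested. Replicate 1 of labelled Ovol1 KO and replicate 1 of Control lacked Xist signal despite a female label (4.54 and 4.43, against at least 10.99 on the other arrays), and the first of them carried Eif2s3y, a Y-linked gene, at 13.80. Differences are therefore also given without these arrays where a member's call rests on them. Control and labelled Ovol1 KO then have no replicate. Array medians ran from 103.3 to 109.8 intensity units, and precision is limited by having 2 arrays a group. Across genes, which are not independent replicates, Control replicate 1 correlated (Pearson) with the Ovol1/2 DKO arrays at 0.963 and 0.953, with the labelled Ovol1 KO arrays at 0.971 and 0.962, and with Control replicate 2 at 0.969, whereas Control replicate 2 correlated with the Ovol1/2 DKO arrays at 0.920 and 0.933. The keratins of basal keratinocytes were high in every group: Krt5 averaged 13.52 in Ovol1/2 DKO, 13.45 in labelled Ovol1 KO and 13.46 in Control, and Krt14 averaged 13.37, 13.25 and 13.30 in the same groups.

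Among the members, Lox and P4ha1 were higher in Ovol1/2 DKO than in Control, and the other 6 did not pass the test. Values are log2(intensity + 16), and the test was limma's linear model over all 6 arrays and all 19938 genes with Benjamini-Hochberg adjustment, passing at an adjusted p under 0.05. The 2 members of 8 that passed, both upward, stand beside 2.02% of all genes that passed in either direction and 0.622% that passed upward, and no member passed downward, against 1.4% of all genes. At an unadjusted p under 0.05 there were 5 members (Lox, Loxl3, Loxl4, P4ha1 and Serpinh1) and 10.4% of all genes. The Ovol1/2 DKO arrays lay wholly above Control for 4 members (Lox, Loxl3, P4ha1 and Serpinh1), as for 21.1% of all genes, and wholly below for Loxl4 and Plod2, as for 18.1%. The members' median difference was 0.76, against 0.03 over all genes. Members differed widely in size and sign, from 4.25 for Lox to -0.95 for Loxl4. In bulk RNA, more cells that express a gene and more RNA per cell cannot be told apart.

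**Figure D1:**
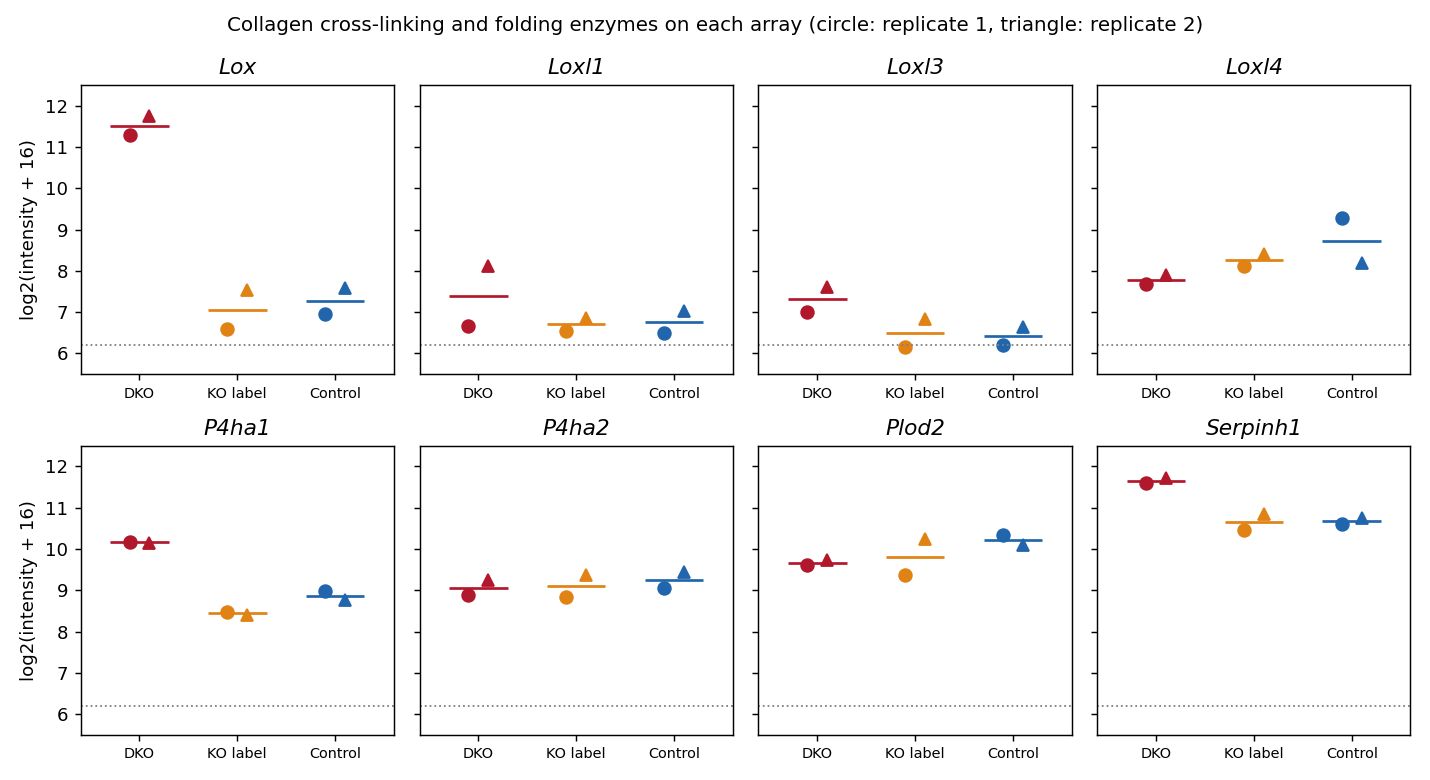
Level of each of the 8 measured members on each array, as log2(intensity + 16), for Ovol1/2 DKO, labelled Ovol1 KO and Control (circles replicate 1, triangles replicate 2, bars group means of 2 arrays, dotted line the near-background level of 6.20). Lox, Loxl3, P4ha1 and Serpinh1 have both Ovol1/2 DKO arrays above the 4 others, while Loxl4 has both below them; levels of different genes are not comparable.

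Lox, the founding member of the lysyl oxidases, had the largest difference. Its intensity was 2467 and 3445 in the Ovol1/2 DKO arrays, 80.1 and 168 in labelled Ovol1 KO, and 109 and 175 in Control. Both Ovol1/2 DKO arrays thus stood far above the 4 others, and the labelled Ovol1 KO and Control arrays overlapped. On the log2 scale Lox averaged 11.52 ± 0.34 in Ovol1/2 DKO and 7.27 ± 0.44 in Control (SD, n = 2 each). The difference of 4.25 (SE 0.38, 95% interval 3.34 to 5.16, limma adjusted p = 0.00755) is 19.0-fold and was the third highest of all genes tested. It passed in all 18 other settings tried, at 3.88 to 4.56. Without both arrays that lacked Xist signal, which leaves Control with no replicate, the difference was 3.94.

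None of the Lox relatives measured passed the test. Loxl1, best known for its part in elastic fibres, had log2 levels of 6.67 and 8.11 in Ovol1/2 DKO, 6.54 and 6.87 in labelled Ovol1 KO, and 6.50 and 7.04 in Control. One Ovol1/2 DKO array lay above all the others and its partner lay within their range. The difference from Control was 0.62 (SE 0.47, 95% interval -0.49 to 1.73, limma adjusted p = 0.916), and without Ovol1/2 DKO replicate 2 it was -0.10.

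Loxl3, a lysyl oxidase with scavenger receptor domains, had log2 levels of 7.02 and 7.61 in Ovol1/2 DKO, 6.15 and 6.85 in labelled Ovol1 KO, and 6.21 and 6.64 in Control. The Ovol1/2 DKO arrays did not overlap the others, but replicate 1 of Ovol1/2 DKO exceeded replicate 2 of labelled Ovol1 KO by less than the gap between replicates. The difference from Control of 0.89 (SE 0.33, 95% interval 0.10 to 1.68) did not pass (limma adjusted p = 0.385). The labelled Ovol1 KO and Control means of 6.50 and 6.42 lie close to 6.20, the highest array median of the unnamed probe sets, which is called near background here, so the difference may be understated.

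Loxl4, of the same subfamily as Loxl3, leaned the other way. Its log2 levels were 7.67 and 7.90 in Ovol1/2 DKO, 8.12 and 8.41 in labelled Ovol1 KO, and 9.28 and 8.19 in Control. Both Ovol1/2 DKO arrays were below all the others, and Control replicate 1 stood apart from its partner. The difference from Control was -0.95 (SE 0.36, limma adjusted p = 0.407), and -0.41 without Control replicate 1. The dimmer Loxl4 probe set gave 6.50 and 6.52 in Ovol1/2 DKO, 7.26 and 7.82 in labelled Ovol1 KO, and 7.73 and 7.74 in Control. Its difference from Control was -1.23, and the mean of both probe sets differed by -1.09, without passing (limma adjusted p = 0.130).

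Of the hydroxylases, P4ha1 differed between the groups and P4ha2 and Plod2 did not pass. P4ha1 encodes the main catalytic subunit of prolyl 4-hydroxylase and P4ha2 an alternative one, and both pair with the subunit P4hb. P4ha1 had an intensity of 1140 and 1112 in Ovol1/2 DKO, 342 and 323 in labelled Ovol1 KO, and 492 and 417 in Control. Replicates lay close together in every group, and the 3 groups did not overlap. On the log2 scale P4ha1 averaged 10.16 ± 0.02 in Ovol1/2 DKO and 8.87 ± 0.16 in Control (SD, n = 2 each). The difference was 1.28 (SE 0.19, 95% interval 0.82 to 1.75, limma adjusted p = 0.0294), or 2.44-fold. The size held at 1.17 to 1.40 over the 18 other settings, but the call was lost without Ovol1/2 DKO replicate 1 (limma adjusted p = 0.195), Ovol1/2 DKO replicate 2 (0.209), Control replicate 1 (0.0571) or Control replicate 2 (0.184). Without both arrays that lacked Xist signal, which leaves Control with no replicate, the P4ha1 difference was 1.40.

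P4ha2 had log2 levels of 8.89 and 9.24 in Ovol1/2 DKO, 8.83 and 9.37 in labelled Ovol1 KO, and 9.05 and 9.45 in Control. The groups overlapped fully, with replicate 2 the higher in each. The difference of -0.19 from Control (SE 0.28, limma adjusted p = 1) had a 95% interval of -0.85 to 0.47. The partner subunit P4hb differed by 0.20 (SE 0.24, limma adjusted p = 1).

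Plod2, the lysyl hydroxylase of collagen telopeptides, had log2 levels of 9.61 and 9.73 in Ovol1/2 DKO, 9.37 and 10.25 in labelled Ovol1 KO, and 10.34 and 10.10 in Control. The Ovol1/2 DKO arrays lay below Control, and the labelled Ovol1 KO arrays spanned both. Its difference from Control of -0.55 (SE 0.31, 95% interval -1.29 to 0.19) did not pass (limma adjusted p = 0.727).

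The relatives of Plod2 ran differently. Plod1, which hydroxylates lysines of the triple helix, rose by 1.52 (SE 0.20, limma adjusted p = 0.0206), with log2 levels of 10.09 and 10.38 in Ovol1/2 DKO, 8.50 and 8.65 in labelled Ovol1 KO, and 8.75 and 8.69 in Control. Plod3, which also adds glucose to collagen, was 0.84 higher (SE 0.20) without passing (limma adjusted p = 0.130). The call of Plod1 was lost without any 1 of the Ovol1/2 DKO or Control arrays (limma adjusted p = 0.0533 to 0.175). Both genes, and P4hb, were singled out after their values were seen.

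Serpinh1, the collagen chaperone, had an intensity of 3075 and 3344 in Ovol1/2 DKO, 1398 and 1815 in labelled Ovol1 KO, and 1543 and 1700 in Control. Both Ovol1/2 DKO arrays were above all the others, which overlapped among themselves. The log2 means were 11.65 ± 0.08 in Ovol1/2 DKO and 10.68 ± 0.10 in Control (SD, n = 2 each). The difference of 0.98 (SE 0.22, 95% interval 0.46 to 1.49), or 1.97-fold, did not pass (limma adjusted p = 0.0955). It passed with replicate number as a block (0.0452) and with array weights (0.0467), at the same difference.

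**Figure D2:**
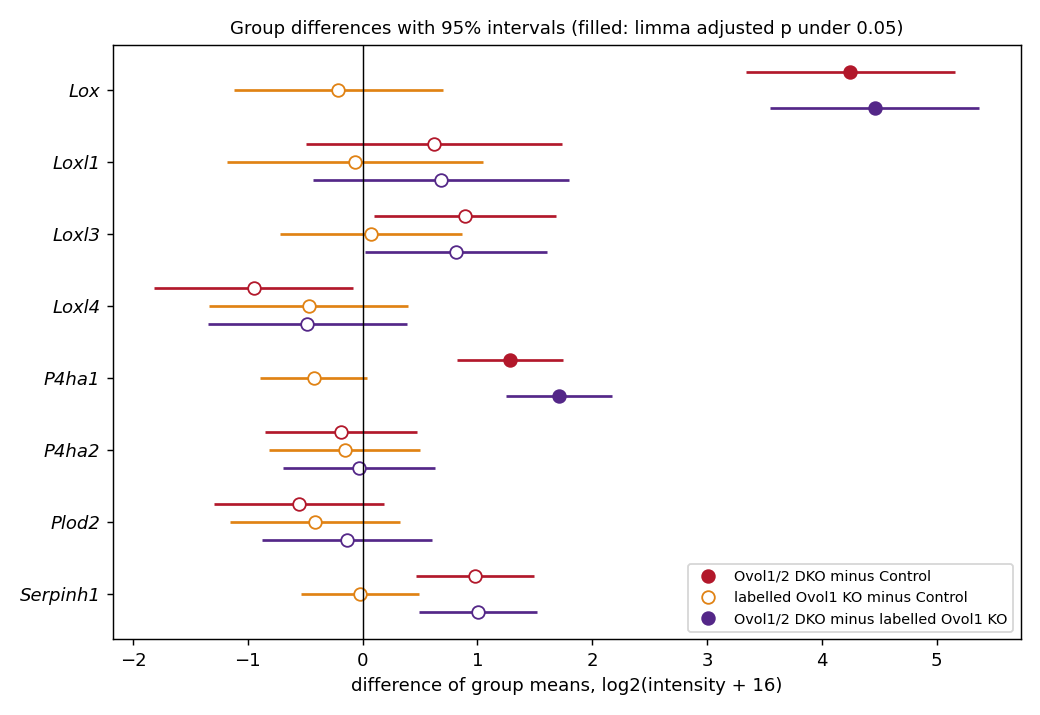
Differences of group means on the log2(intensity + 16) scale for each member in the 3 comparisons, with 95% intervals from the moderated fit (2 arrays per group, filled points limma adjusted p under 0.05). Lox and P4ha1 are filled in both comparisons with Ovol1/2 DKO, at 4.25 and 4.46 for Lox and 1.28 and 1.71 for P4ha1, and no point of labelled Ovol1 KO minus Control is filled.

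Promoters of 4 of the 10 members were read from the RefSeq table used (GRCm38.p6). Each runs from 250 bases before to 50 bases after the start of the gene. The promoter of Lox is not shown or searched here. Of the 4 genes, P4ha1 passed the test and P4ha2, a subunit with the same function, did not. Serpinh1 and Loxl4 leaned in opposite directions without passing. Both strands were searched for CCGTTA, a site bound by Ovol factors, for ACGTG and GCGTG, the cores of hypoxia response elements, and for CAGGTG, an E-box read by Zeb and Snail factors. Capitals mark every match on either strand, and the sequences run 5′ to 3′ along the gene.
P4ha1 (chr10:59323046-59323345, + strand): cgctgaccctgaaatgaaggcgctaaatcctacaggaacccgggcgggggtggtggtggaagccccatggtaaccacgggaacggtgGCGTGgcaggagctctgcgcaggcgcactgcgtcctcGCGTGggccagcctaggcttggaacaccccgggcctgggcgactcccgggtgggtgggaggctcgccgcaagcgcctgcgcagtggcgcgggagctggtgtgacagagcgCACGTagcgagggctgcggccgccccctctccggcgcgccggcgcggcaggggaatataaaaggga
P4ha2 (chr11:54100674-54100973, + strand): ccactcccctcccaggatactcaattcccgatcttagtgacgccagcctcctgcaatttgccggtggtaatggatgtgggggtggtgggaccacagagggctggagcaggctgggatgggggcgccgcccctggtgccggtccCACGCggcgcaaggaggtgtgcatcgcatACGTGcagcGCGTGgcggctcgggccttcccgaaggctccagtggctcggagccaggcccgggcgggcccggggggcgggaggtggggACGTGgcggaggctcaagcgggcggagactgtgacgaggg
Serpinh1 (chr7:99353190-99353489, - strand): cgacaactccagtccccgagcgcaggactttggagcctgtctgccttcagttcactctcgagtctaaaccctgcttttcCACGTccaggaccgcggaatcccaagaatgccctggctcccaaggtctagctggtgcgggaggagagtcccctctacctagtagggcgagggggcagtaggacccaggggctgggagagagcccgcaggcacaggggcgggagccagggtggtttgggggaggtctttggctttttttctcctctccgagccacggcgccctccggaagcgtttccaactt
Loxl4 (chr19:42612757-42613056, - strand): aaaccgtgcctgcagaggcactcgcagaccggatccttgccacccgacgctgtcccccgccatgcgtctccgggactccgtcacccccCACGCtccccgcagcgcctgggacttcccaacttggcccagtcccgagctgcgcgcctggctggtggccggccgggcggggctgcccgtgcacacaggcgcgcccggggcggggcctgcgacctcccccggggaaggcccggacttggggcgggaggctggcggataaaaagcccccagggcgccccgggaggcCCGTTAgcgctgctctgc
P4ha1 holds 2 matches of GCGTG and 1 of ACGTG, with ACGTG on the reverse strand 16 bases before the start. P4ha2 holds 2 matches of each core, so both subunits carry these letters. Serpinh1 holds ACGTG on the reverse strand 171 bases before the start, and Loxl4 holds GCGTG on the reverse strand 162 bases before it. Either hypoxia core occurs in 43.8% of the 32851 promoters in the table. CCGTTA was found in Loxl4, starting at base 33 after the start, and is held by 2.76% of all promoters. CAGGTG, held by 20.2% of promoters, was not found in these 4 windows. No overlap between matches of different motifs was found in them.

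No member passed in labelled Ovol1 KO against Control. Here 0 of 8 members had a limma adjusted p under 0.05, as did 0% of all genes, and at an unadjusted p under 0.05 the counts were 0 members and 0.767% of all genes. P4ha1 was the member whose groups did not overlap, with both labelled Ovol1 KO arrays below both Control arrays, as in 10.3% of all genes, and none had both above, against 8.82%. It differed by -0.43 (SE 0.19, 95% interval -0.89 to 0.04, limma adjusted p = 0.999). Lox differed by -0.21 (SE 0.38), Serpinh1 by -0.02 (SE 0.22), Loxl3 by 0.07 (SE 0.33) and Loxl1 by -0.06 (SE 0.47). Loxl4, Plod2 and P4ha2 differed by -0.47 (SE 0.36), -0.41 (SE 0.31) and -0.16 (SE 0.28). The 95% interval was -1.12 to 0.70 for Lox and -1.18 to 1.05 for Loxl1.

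Set against labelled Ovol1 KO, the Ovol1/2 DKO arrays gave the same members. Again Lox and P4ha1 passed upward, 2 of 8 against 1.24% of all genes upward and 3.15% in either direction, and none passed downward, against 1.91%. The Ovol1/2 DKO arrays lay wholly above labelled Ovol1 KO for the same 4 members as against Control, against 24.6% of all genes. At an unadjusted p under 0.05 there were 4 members and 14.1% of all genes. Lox differed by 4.46 (SE 0.38, 95% interval 3.55 to 5.37, limma adjusted p = 0.00516). P4ha1 differed by 1.71 (SE 0.19, 95% interval 1.25 to 2.18, limma adjusted p = 0.0106). Without both arrays that lacked Xist signal, which leaves labelled Ovol1 KO with no replicate, the differences were 3.99 for Lox and 1.75 for P4ha1. P4ha1 lost the call when either of the Ovol1/2 DKO arrays was left out, or labelled Ovol1 KO replicate 1 (limma adjusted p = 0.0531 to 0.0781). Serpinh1 was 1.002 higher (SE 0.22, limma adjusted p = 0.0674, and 0.0316 with replicate number as a block), Loxl3 0.82 (SE 0.33) and Loxl1 0.69 (SE 0.47). Loxl4, Plod2 and P4ha2 differed by -0.48 (SE 0.36), -0.14 (SE 0.31) and -0.03 (SE 0.28), none passing. This comparison shares its Ovol1/2 DKO arrays with the comparison against Control, and the labels of its other arrays were not borne out, so it adds no independent count.

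Counted over arrays, Lox, Loxl3, P4ha1 and Serpinh1 had both Ovol1/2 DKO arrays above the 4 others, as did 12.8% of all genes. Loxl4 had both below the 4 others, as did 12% of all genes. Some members also differed by replicate number. Lox, Loxl1, Loxl3, P4ha2 and Serpinh1 were higher in replicate 2 than in replicate 1 within each of the 3 groups, against 19.9% of all genes. P4ha1 was lower in replicate 2 in all 3, a pattern whose share over all genes was not computed. What the replicate number stands for is not given in the labels, and its part in these results was not tested beyond the fit with replicate number as a block. The replicate SD of Lox was at most 0.66, in labelled Ovol1 KO, and that of Loxl1 was 1.02 in Ovol1/2 DKO, above its difference between the groups.

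Other genes of collagen maturation also rose in Ovol1/2 DKO. They come from a list chosen with earlier results of these data known, so its counts are not independent evidence. Of 28 further enzymes, chaperones and secretion factors measured, 6 rose against Control, none fell and 22 did not pass, beside 0.622% of all genes that rose. Their median difference was 0.54, against 0.03 over all genes, and 26 of the 28 differences were positive. Tll1, a protease of the family that trims procollagen ends and activates pro-Lox, rose by 3.12 (SE 0.38, limma adjusted p = 0.0159). Its log2 levels were 10.91 and 11.29 in Ovol1/2 DKO, 6.53 and 7.51 in labelled Ovol1 KO, and 8.29 and 7.68 in Control, so the Ovol1/2 DKO arrays stood well apart. Tgm2, a transglutaminase that cross-links matrix proteins, rose by 2.94 (SE 0.48, limma adjusted p = 0.0364), with replicates at 8.50 and 10.02 in Ovol1/2 DKO and at 6.21 and 6.42 in Control.

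The prolyl 3-hydroxylase family member P3h3 rose by 1.67 (SE 0.30, limma adjusted p = 0.0466) and Sparc, a collagen-binding matricellular protein, by 1.65 (SE 0.23, limma adjusted p = 0.0235). Besides Plod1, the prolyl isomerase Fkbp14, a relative of Fkbp10, rose by 1.55 (SE 0.21, limma adjusted p = 0.0208). Fkbp14 in this comparison was named after its value was seen. Each of the 6, Plod1 included, lost the call without Ovol1/2 DKO replicate 2 (limma adjusted p = 0.0884 for Tgm2 to 0.305 for P3h3) and without Control replicate 2 (0.0593 for Tll1 to 0.215 for P3h3). Tll1, P3h3, Sparc and Fkbp14 also lost it without Ovol1/2 DKO replicate 1 (0.0616 to 0.138), P3h3 and Tgm2 without either labelled Ovol1 KO array (0.0577 and 0.0589), and Tgm2 without Control replicate 1 (0.0795).

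Other members of that list, chosen after their values were seen, did not pass. Fkbp7, an isomerase of the same family as Fkbp14, was 1.82 higher (SE 0.35, limma adjusted p = 0.0657), the procollagen C-proteinase Bmp1 1.27 higher (SE 0.33, 0.160) and Crtap, partner of the prolyl 3-hydroxylase P3h1, 1.16 higher (SE 0.24, 0.0823). Without both arrays that lacked Xist signal, which leaves Control with no replicate, the differences were 2.20 for Fkbp7, 1.16 for Bmp1 and 1.44 for Crtap. With replicate number as a block Fkbp7 (limma adjusted p = 0.0473) and Crtap (0.0415) passed. Against labelled Ovol1 KO, 7 of the 28 passed upward and none downward, beside 1.24% and 1.91% of all genes. Tll1 led there at 4.08 (SE 0.38, limma adjusted p = 0.00654), followed by Tgm2 at 2.93, Sparc at 2.03 and Fkbp14 at 1.94, with P3h3 (1.84), Plod1 (1.66) and Plod3 (1.103) named after their values were seen. Tll1 kept its call without any 1 array, and the other 6 lost it without Ovol1/2 DKO replicate 2 (limma adjusted p = 0.0681 to 0.309) or labelled Ovol1 KO replicate 1 (0.0549 to 0.140). Sparc, P3h3, Plod1 and Plod3 also lost it without Ovol1/2 DKO replicate 1 (0.0578 to 0.188), Tgm2 and Plod3 without labelled Ovol1 KO replicate 2 (0.0675 and 0.0785), and Plod3 without either Control array (0.0517). In labelled Ovol1 KO against Control none of the 28 passed in limma, with 2 at an unadjusted p under 0.05, beside 0.767% of all genes. These were P3h2 at -0.63 (SE 0.22) and Tll1 at -0.97 (SE 0.38).

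**Figure D3:**
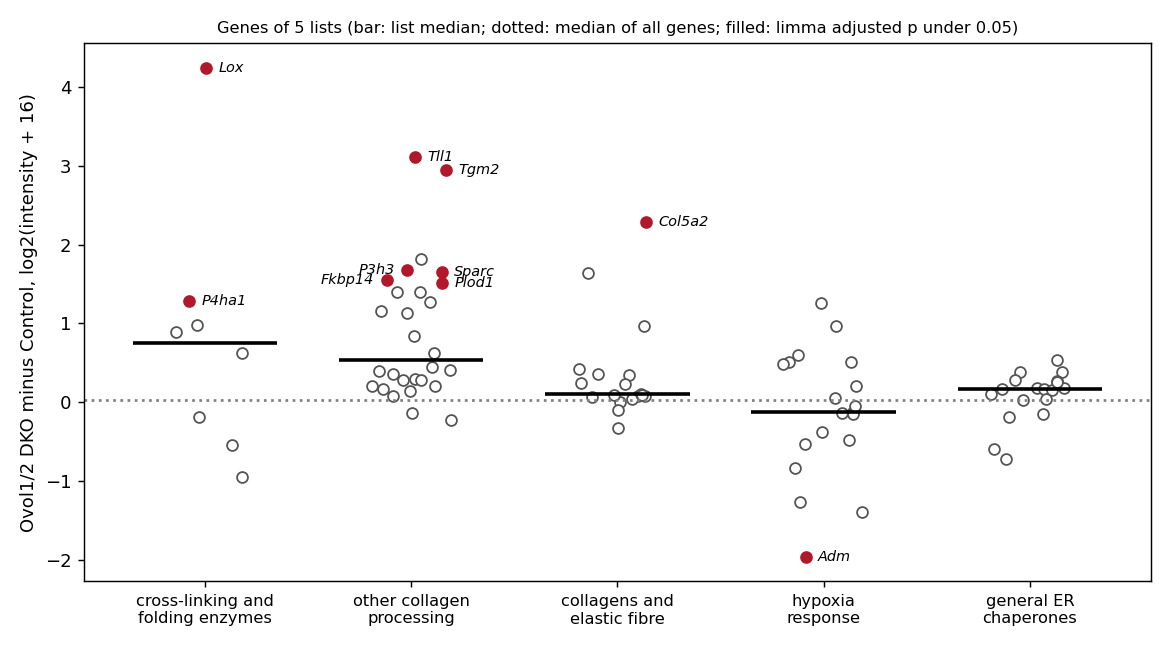
Difference of each gene between Ovol1/2 DKO and Control on the log2(intensity + 16) scale in 5 gene lists (points genes, filled where limma adjusted p was under 0.05, bars list medians, dotted line the median of all genes at 0.03). Of the cross-linking and folding enzymes 2 of 8 are filled and of the other collagen processing genes 6 of 28, all upward, with medians of 0.76 and 0.54; the medians of the other lists lie between -0.12 and 0.17.

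Among the substrates of these enzymes Col5a2 alone passed the test. Of 18 measured collagens and elastic fibre genes, 1 rose in Ovol1/2 DKO against Control and none fell, beside 0.622% and 1.4% of all genes, and the median was 0.10, against 0.03 over all genes. The gene that rose was Col5a2, a fibrillar collagen chain, at 2.29 (SE 0.28, limma adjusted p = 0.0159). It had log2 levels of 8.24 and 9.002 in Ovol1/2 DKO, 6.05 and 6.11 in labelled Ovol1 KO and 6.34 and 6.31 in Control, and lost the call without Ovol1/2 DKO replicate 2 (limma adjusted p = 0.0670) or Control replicate 2 (0.0647). Col1a1, the main fibrillar chain of dermis, differed by 0.42 (SE 0.37) and the elastic fibre protein Fbln5 by 1.64 (SE 0.37, limma adjusted p = 0.102), neither passing. Fbln5, named after its value was seen, differed by 2.02 without both arrays that lacked Xist signal, which leaves Control with no replicate. Against labelled Ovol1 KO, Col5a2 again was the 1 gene of 18 to pass, at 2.54 (SE 0.28, limma adjusted p = 0.00921), lost without labelled Ovol1 KO replicate 1 (0.0603).

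P4ha1, P4ha2, Plod2 and Lox are known targets of the hypoxia response, so its other genes were read beside them. The part of hypoxia in the members' results was not tested. Of 19 such genes measured, none rose and 1 fell in Ovol1/2 DKO against Control, beside 1.4% of all genes that fell. Their median was -0.12, and 8 of the 19 differences were positive. At an unadjusted p under 0.05 there were 4 of the 19, beside 10.4% of all genes. The gene that fell was Adm, which encodes the vasodilator adrenomedullin, at -1.97 (SE 0.27, limma adjusted p = 0.0215). Adm lost the call when Ovol1/2 DKO replicate 1 or 2 was left out (limma adjusted p = 0.124 and 0.100) or without Control replicate 2 (0.0863). Against labelled Ovol1 KO Adm was again the gene that passed, at -1.57 (limma adjusted p = 0.0324), a call lost when any 1 array of these groups was left out (0.0852 to 0.206). Among 18 general chaperones and stress genes of the endoplasmic reticulum none passed in limma against Control, and the median was 0.17. There was 1 at an unadjusted p under 0.05, beside 10.4% of all genes. Pdia4, a disulfide isomerase, differed by 0.53 (SE 0.22) and Herpud1, a gene of the unfolded protein response, by -0.60 (SE 0.28). Against labelled Ovol1 KO these 2 genes had the smallest p, at 0.47 (SE 0.22) for Pdia4 and -1.11 (SE 0.28) for Herpud1, again not passing. In labelled Ovol1 KO against Control no gene of these 3 lists passed or had an unadjusted p under 0.05, and the smallest p belonged to Col5a2 (-0.25) and Col3a1 (0.26), Adm (-0.40) and Hk2 (-0.37), and Herpud1 (0.51) and Xbp1 (0.27).

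Fibroblasts make much of this machinery, so their markers were read on the same arrays. Of 12 measured, Thy1 rose by 1.67 in Ovol1/2 DKO against Control (SE 0.22, limma adjusted p = 0.0187; lost without Ovol1/2 DKO replicate 1 or 2, 0.110 and 0.141, or without Control replicate 2, 0.0962) and the others did not pass. Summed intensity of the 12 was 4331 and 5235 in Ovol1/2 DKO, 2745 and 3321 in labelled Ovol1 KO, and 2628 and 3303 in Control. Fbln1, also expressed outside fibroblasts, was the largest single part of these sums, with log2 levels of 11.17 and 11.38 in Ovol1/2 DKO, 10.55 and 10.17 in labelled Ovol1 KO and 10.52 and 10.09 in Control. Dcn, a defining fibroblast gene, had levels of 7.35 and 8.30 in Ovol1/2 DKO, 7.42 and 8.04 in labelled Ovol1 KO, and 7.25 and 8.40 in Control. Dcn and Col1a1 thus overlapped between the groups and were higher in replicate 2 of each, and Lum was near background on every array. The part of fibroblasts in the Lox result was not tested.

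Of 8 endothelial and mural markers, Cspg4 rose by 2.11 (SE 0.28, limma adjusted p = 0.0193) in Ovol1/2 DKO against Control, while Cdh5, Tek and Emcn were near background on every array. The endothelial receptor gene Kdr, named after its values were seen, went the other way without passing: its log2 levels were 7.82 and 7.83 in Ovol1/2 DKO, 7.96 and 7.84 in labelled Ovol1 KO, and 9.19 and 8.77 in Control. Kdr differed from Control by -1.15 in Ovol1/2 DKO (SE 0.22, limma adjusted p = 0.0599) and by -1.08 in labelled Ovol1 KO (0.999), so both Control arrays stood above the 4 others. Against labelled Ovol1 KO, Cspg4 (2.05) and Pecam1 (1.28) passed (limma adjusted p = 0.0156 and 0.0204), and the fibroblast marker Thy1 passed at 1.90 (0.0106; lost without either Ovol1/2 DKO array or labelled Ovol1 KO replicate 1, 0.0502 to 0.0780). Of 12 keratinocyte markers the desmosomal cadherin Dsg3 fell by 1.25 against Control (limma adjusted p = 0.0402). Against labelled Ovol1 KO Dsg3 fell by 1.20 (0.0351) and Trp63 rose by 1.097 (0.0464). No melanocyte or leukocyte marker of 8 each passed in limma in any comparison. In Ovol1/2 DKO against Control 3 melanocyte markers and 0 leukocyte markers had an unadjusted p under 0.05, beside 10.4% of all genes. All but 1 of the 8 melanocyte differences were negative, with a median of -0.66 against 0.03 over all genes. The smallest p among them belonged to Tyrp1, a melanin synthesis gene, at -1.74 (SE 0.49, limma adjusted p = 0.199), and to Mitf, the melanocyte transcription factor, at -0.95 (SE 0.27, 0.212). Summed melanocyte marker intensity was 804 and 662 in Ovol1/2 DKO, 1130 and 865 in labelled Ovol1 KO, and 1210 and 1362 in Control, and Tyr was near background on every array. Among leukocyte markers the smallest p belonged to Lyz2 at -1.34 (SE 0.97) and Csf1r at -0.31 (SE 0.37). Calls of Cspg4, Pecam1, Dsg3 and Trp63 each were lost without Ovol1/2 DKO replicate 2, and each was also lost without at least 1 other array. The Dsg3 call against Control and the Trp63 call against labelled Ovol1 KO were lost whichever of the 6 arrays was left out. In labelled Ovol1 KO against Control no marker of any of these lists passed in limma. An unadjusted p under 0.05 was held there by 1 endothelial or mural marker and none of the others, beside 0.767% of all genes. The part of other cells in the members' results was not tested.

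Genes whose pattern over the 6 arrays was most like that of a member were listed as a description, leaving out genes in the dimmer part of the range. Lox, P4ha1 and Serpinh1 each have both Ovol1/2 DKO arrays above the 4 others, a step that the points of each Pearson correlation share. For Lox the 5 highest were Asah1 (r = 0.9996), Hlf (0.999), Serpinh1 (0.995), Mical2 (0.995) and St6galnac4 (0.993). Serpinh1, itself a member, thus followed Lox closely in shape, though it differed by 0.98 where Lox differed by 4.25. For P4ha1 the highest were Ripor2 (r = 0.999), Igfbp4 (0.996), Htr1b (0.996), Gtf3c1 (0.995) and Lbh (0.993). For Serpinh1 they were Med16 (r = 0.997), Actg2 (0.997), Lox (0.995), Asah1 (0.993) and Chst12 (0.993). Igfbp4 was 3.78 higher and Actg2 3.08 higher in Ovol1/2 DKO than in Control, while Asah1 was 0.38 higher, so genes with very different sizes of change shared the shape.

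**Figure D4:**
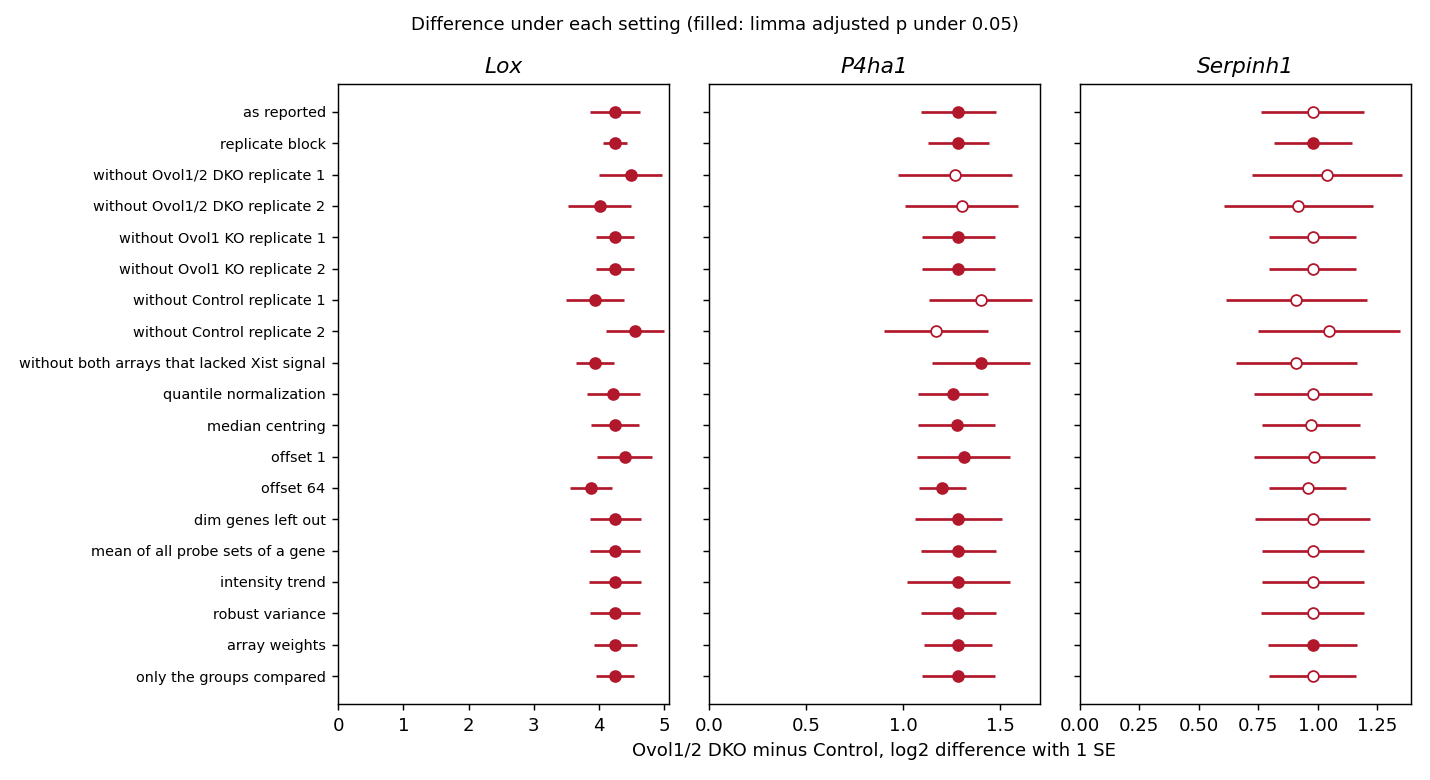
Difference between Ovol1/2 DKO and Control for Lox, P4ha1 and Serpinh1 under the reported setting and 18 others, on the log2 scale with 1 standard error (filled points limma adjusted p under 0.05). Lox stays between 3.88 and 4.56 and is filled throughout, P4ha1 stays between 1.17 and 1.40 and is open where an Ovol1/2 DKO or a Control array alone was left out, and Serpinh1 stays between 0.91 and 1.05 and is filled with the replicate block and with array weights.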

How the data were processed

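The authors deposited 1 linear intensity per probe set and array. The submitters' processing notes list Expression Console 1.1.1 and PLIER 2.0, a probe summary method; how background, normalization or filters were set is not given in the sources used here. Of 35556 probe sets, 21789 had 1 gene symbol in the platform annotation, 1621 several and 12146 none. Symbols were updated by Entrez identifier against GRCm38.p6 names (91 without a match), and the probe set with the highest mean over the 6 arrays stood for each of the 999 genes with several.

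Values were taken as log2(intensity + 16), which understates changes of dim genes. One linear model over the 3 groups used lmFit, then eBayes, from limma 3.58.1 under R 4.3.3. It had 3 residual and 3.68 prior degrees of freedom and gave 3 comparisons, adjusted over 19938 genes. A check of the fit on simulated data drew noise independently for each array. That noise lacked the correlation of replicate deviations described below, so no conclusion is drawn from it. With 2 arrays against 2, an exact test cannot go below a two-sided p of 0.333, so p-values rest on spread pooled over genes. The members and lists were chosen with earlier results of these data known. Besides members, up to 4 passing genes of a list, or 2 by smallest p, were named, and genes named otherwise are marked. Of the list symbols 4 had no measured gene. Likeness of pattern was taken over genes whose mean was no lower than the overall median of 7.56. Promoter sequences are from RefSeq. Alternatives were a replicate block, leaving out arrays, quantile normalization, offsets of 1 and 64, median centring, fits of the compared groups alone, dim genes left out, mean of all probe sets, intensity trend, robust variance and array weights.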

Additional observations from a re-analysis of the deposited data

How the results depend on the processing

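In both comparisons of Ovol1/2 DKO, Lox passed in all 18 other settings. Leaving out 1 array at a time, 1 to 2 members passed against Control and 1 to 2 against labelled Ovol1 KO, and 0 passed in labelled Ovol1 KO against Control in any setting. The count of all genes passing (403, 0 and 628 as reported) ran from 99 to 455 against Control, 0 to 3 for labelled Ovol1 KO against Control, and 135 to 831 for Ovol1/2 DKO against labelled Ovol1 KO. Without both arrays that lacked Xist signal it was 1395, 20 and 1508 in these comparisons. An offset of 64 gave 155 against Control and 311 against labelled Ovol1 KO, and array weights gave 608 against Control. The cause was not tested for any of these. Where a group keeps 1 array, that array is assumed to vary like the other groups.

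Replicate 1 deviations from group means correlated at 0.49 between Ovol1/2 DKO and Control, at 0.26 between labelled Ovol1 KO and Control, and at 0.194 for the remaining pair of groups, but the labels do not say what the number marks. With replicate number as a block, 597 genes passed against Control, 0 for labelled Ovol1 KO against Control and 1022 against labelled Ovol1 KO. Members that passed were 3, 0 and 3, the third being Serpinh1 (limma adjusted p = 0.0452 and 0.0316). Serpinh1 also passed with array weights against Control (0.0467) and with an intensity trend against labelled Ovol1 KO (0.0431). With the block Fkbp7 and Crtap also passed against Control (0.0473 and 0.0415), and Fkbp7, Crtap and Bmp1 against labelled Ovol1 KO (0.0422, 0.0272 and 0.0365). P3h3 lost its call against Control with the block (0.0509), quantile normalization (0.0609), median centring (0.0517), an offset of 1 (0.0511) or 64 (0.0924) and a fit of the compared groups alone (0.0577). Against Control an offset of 64 also ended the calls of Tgm2 (0.126), Col5a2 (0.0574), Adm (0.0565), Dsg3 (0.0551) and Cspg4 (0.0597). The compared groups alone ended those of Tgm2 (0.0589) and Dsg3 (0.0522), and an offset of 1 that of Dsg3 (0.0621). Against labelled Ovol1 KO, Plod3 lost its call with quantile normalization (0.0685), an offset of 1 (0.0656), an intensity trend (0.0595) and the compared groups alone (0.0517). Trp63 lost its call there with median centring, either offset and the compared groups alone (0.0504 to 0.0734). An offset of 64 there ended the calls of Tgm2, Adm and P3h3 (0.0565 to 0.0986). Fkbp7, Crtap and Fbln5 gained a call there with the compared groups alone.

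Signs turned for values that did not pass. Leaving out 1 array, Ovol1/2 DKO minus Control ran from -0.10 to 1.34 for Loxl1, -0.39 to 0.0126 for P4ha2 and -0.80 to 0.60 for Ovol2. Ovol1/2 DKO minus labelled Ovol1 KO ran from -0.0333 to 1.40 for Loxl1, -0.30 to 0.24 for P4ha2, -0.58 to 0.30 for Plod2 and -0.10 to 0.41 for P4hb. Labelled Ovol1 KO minus Control ran from -0.68 to 0.26 for Lox, -0.33 to 0.20 for Loxl1, -0.28 to 0.42 for Loxl3, -1.01 to 0.0753 for Loxl4, -0.43 to 0.11 for P4ha2, -0.85 to 0.0265 for Plod2, -0.21 to 0.16 for Serpinh1, -0.24 to 1.16 for Ovol2 and -0.0827 to 0.61 for Col3a1. Without both arrays that lacked Xist signal it was 0.22 for Loxl4, 0.15 for Plod2, 0.0939 for Serpinh1, -0.15 for Ovol1 and -0.034 for Herpud1, and Ovol2 in Ovol1/2 DKO minus Control was 0.60. Quantile normalization gave 0.0225 for Serpinh1 in labelled Ovol1 KO minus Control. Among members in the comparisons with Ovol1/2 DKO, 271 of the values over all settings kept their direction and side of the threshold, 7 lost the call, 4 gained it and 6 turned sign.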
